A study of Mus musculus with 8 samples.

Results

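The genes described here encode the fibrillar and network collagens, laminins, fibronectin, fibulins, small proteoglycans, crosslinking enzymes, matrix proteases and their inhibitors, with surface and contractile markers of fibroblasts and mural cells. They were given as a list of 46 gene symbols, and all 46 were found among the 35419 genes with a symbol that the deposited files cover. RNA was sequenced from N2A tumors, which grow from the mouse neuroblastoma line Neuro-2a, after 1000000 cells had been injected under the skin of female A/J mice of 4 weeks. When a tumor could be felt, after about 8 days, the mice received intraperitoneal injections of vehicle or of SR59230A, an adrenergic receptor antagonist, at 10 mg/kg in repeated daily doses. By the methods of the study the mice were killed after 8 days of treatment. The labels give 4 vehicle tumors, numbered 0 to 3, and 4 SR59230A tumors, numbered 1 to 4, so each tumor is called here by its number. Every tumor derives from the same tumor line in the same mouse strain, and the labels do not say that each tumor came from a different mouse, so p-values measure the spread between these 8 samples. The comparison asks whether the matrix and fibroblast transcripts of a neuroblastoma differ between mice given SR59230A and mice given vehicle. In whole tumor tissue, fewer cells of a type and less RNA per cell cannot be told apart.

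The extracellular matrix is built mainly by fibroblasts, while endothelial cells, pericytes and tumor cells lay down the basement membrane along vessels and nests. Fibrillar collagens leave the cell as soluble trimers, lose their ends to proteases, assemble into fibrils and are bound together by lysyl oxidases. Basement membranes are sheets of collagen IV and laminin joined by nidogens and perlecan. In neuroblastoma, a tumor of the sympathetic lineage, the amount of stroma is part of how tumors are graded, and human tumors rich in Schwann cell stroma behave less aggressively. A defining marker of that stroma was near 0 in N2A tumors. Sox10, a transcription factor of Schwann cells, had at most 3 estimated reads in a tumor, and the epidermal keratins Krt5 and Krt14 had at most 9 and 4. Hand2, a transcription factor of the sympathetic lineage, was present at 73.6 to 142 TPM (transcripts per 1000000, a level corrected for transcript length). Fibroblasts were represented by Col1a1, Col1a2, Dcn, Lum, Pdgfra and Thy1, all of which had estimated reads in every tumor. Lum had only 5 in vehicle tumor 2, and Thy1 is shared with neurons. The endothelial genes Pecam1 (17.6 to 27.5 TPM) and Cdh5 (7.93 to 15.1 TPM) and the pericyte gene Rgs5 (14.6 to 40.3 TPM) were detected as well.

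Total estimated counts ran from 23484190 to 44045575 per tumor. The libraries also differed in measures of composition. Transcripts annotated with a retained intron took 2.48 to 4.20% of the counts, with the lowest shares in vehicle tumors 1 and 2 and SR59230A tumor 2 and the highest in vehicle tumor 3 and SR59230A tumors 1 and 3. Mitochondrially encoded genes took 1.31 to 7.49%, and the lowest values were again in vehicle tumors 1 and 2 and SR59230A tumor 2. Skeletal muscle transcripts were high in SR59230A tumors 1 and 2, where the mean of 11 muscle genes was 6.32 and 2.86 log2 CPM (counts per 1000000 reads), and at most 0.93 in each of the remaining 6. Adipocyte genes were highest in SR59230A tumor 3. Fits without these tumors are given where they bear on a value.

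The promoters of 28 of the 46 genes were present in the RefSeq table (assembly GRCm38.p6), as windows from 250 bases before to 50 bases after a transcription start. The windows shown are those of Col1a2 and Col3a1, the most abundant fibrillar collagen genes, and of Lama2 and Timp3, which had the smallest and the third smallest p-values among the members. Capitals mark matches, on either strand, to 3 core promoter motifs: TATAAA (the TATA box), CCAAT (the CCAAT box) and GGGCGG (the GC box, bound by Sp1). None of the matches shown overlaps another. Col1a2 lies at chr6:4505368-4505667 (+ strand), Col3a1 at chr1:45311288-45311587 (+), Lama2 at chr10:27616893-27617192 (-) and Timp3 at chr10:86300162-86300461 (+). Each sequence reads 5′ to 3′ along the gene.
Col1a2: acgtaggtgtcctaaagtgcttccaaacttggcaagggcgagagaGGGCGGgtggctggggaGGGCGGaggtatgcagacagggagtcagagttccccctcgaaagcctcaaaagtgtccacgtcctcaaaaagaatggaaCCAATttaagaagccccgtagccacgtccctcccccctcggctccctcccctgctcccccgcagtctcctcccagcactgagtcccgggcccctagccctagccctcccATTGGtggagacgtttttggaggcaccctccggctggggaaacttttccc
Col3a1: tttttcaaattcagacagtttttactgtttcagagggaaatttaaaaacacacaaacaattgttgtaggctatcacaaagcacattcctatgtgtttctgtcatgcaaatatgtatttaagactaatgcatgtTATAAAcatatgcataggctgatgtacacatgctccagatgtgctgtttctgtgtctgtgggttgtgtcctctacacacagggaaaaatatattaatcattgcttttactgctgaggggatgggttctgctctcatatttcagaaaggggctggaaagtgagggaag
Lama2: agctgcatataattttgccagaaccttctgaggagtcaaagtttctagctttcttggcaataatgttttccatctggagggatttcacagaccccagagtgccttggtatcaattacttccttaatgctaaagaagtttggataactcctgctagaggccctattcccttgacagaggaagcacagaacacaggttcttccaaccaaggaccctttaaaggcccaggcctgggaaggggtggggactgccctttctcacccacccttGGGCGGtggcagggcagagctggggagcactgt
Timp3: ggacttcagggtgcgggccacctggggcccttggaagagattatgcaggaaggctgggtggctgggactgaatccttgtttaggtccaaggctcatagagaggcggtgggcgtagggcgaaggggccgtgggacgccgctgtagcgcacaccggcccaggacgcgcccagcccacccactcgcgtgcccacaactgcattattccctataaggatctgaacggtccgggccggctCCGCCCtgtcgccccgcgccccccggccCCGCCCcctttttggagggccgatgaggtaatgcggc
The Col1a2 window held CCAAT from position -109 and GGGCGG from positions -205 and -188, and its reverse CCAAT match began at the start site itself, position 1. The Col3a1 window held no GC box by these letters and a single TATAAA, from position -117. Lama2 had GGGCGG from position 18, inside the transcribed part, and Timp3 had it on the opposite strand from positions -15 and 14. Col1a2 and Col3a1 thus shared none of the 3 motifs in these windows. Among the 33 member promoters in the table, 63.6% held GGGCGG, 30.3% CCAAT and 12.1% TATAAA, against 35.7%, 37.4% and 13.6% of all 32851 promoters. A match describes letters in a window and says nothing of whether a factor was bound.

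By mean TPM over the 8 tumors, a unit that allows genes to be compared, secreted glycoproteins and basement membrane chains led the matrix transcripts rather than fibrillar collagens. Fn1, which encodes fibronectin, the adhesive glycoprotein that integrins bind, had the highest mean level (183 TPM, range 137 to 248). It was followed by Fbln1 (fibulin-1, a matrix glycoprotein that binds fibronectin) at 159 TPM, Sparc (a secreted collagen-binding glycoprotein) at 139.7, Pcolce (which enhances removal of the collagen C-propeptide) at 134, Col4a1 at 123 and Col4a2 at 118. The ranges of these genes over the 8 tumors overlap, but they were measured in the same tumors. In every tumor Fn1 lay above Col4a1 and Col4a2, and Fbln1 lay above Col4a1. Fn1 lay above Fbln1 in every tumor except vehicle tumor 2 (149 against 204 TPM). The 3 most abundant fibrillar chains, Col3a1, Col1a2 and Col1a1, had means of 69.0, 59.8 and 58.8 TPM. At the other end stood Lum, Lama2 and Eln, with means of 0.911, 1.03 and 1.03 TPM. Lamb1 averaged 0.927 TPM, but its value cannot be read as a level, as described below. In all, 6 members had a mean over 100 TPM, 21 lay between 10 and 100, and 19, Lamb1 among them, were under 10. Summed over the 46 genes the level was 1273 to 2420 TPM, lowest in vehicle tumor 3 and highest in SR59230A tumor 2. Glycoproteins and proteoglycans held 35.9 to 39.2% of it and basement membrane genes 17.5 to 25.4%. Fibrillar collagens held 8.16 to 18.3%, and this share was highest in SR59230A tumor 1 and lowest in vehicle tumor 1. In SR59230A tumor 1 it exceeded the basement membrane share, which was 17.5% there. In that tumor Col3a1 (130 TPM) also lay above Col4a1 (117 TPM) and Col4a2 (82.4 TPM).

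**Figure D1:**
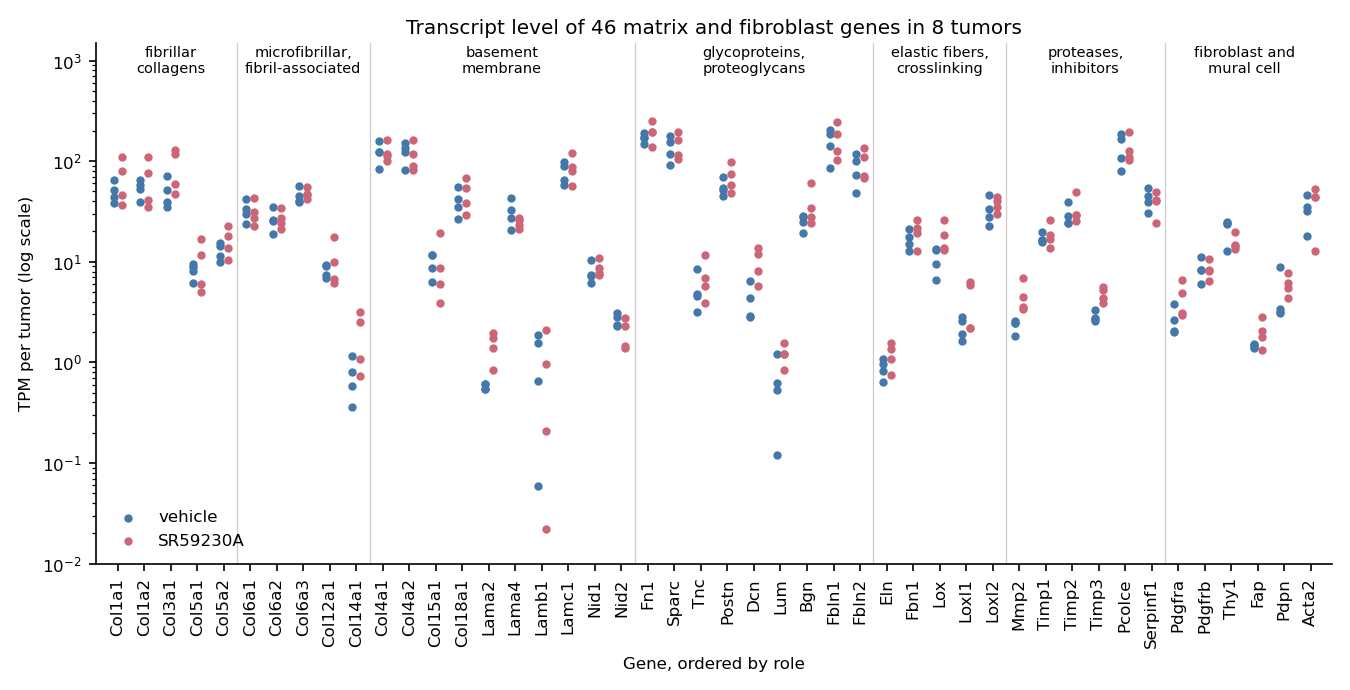
Transcript level of the 46 genes in each tumor, in TPM on a log axis, with genes ordered by role and a point per tumor, blue for the 4 vehicle tumors and red for the 4 SR59230A tumors. Fn1 has the highest mean, with a range of 137 to 248 TPM. Lamb1 spreads widest, from 0.022 to 2.11 TPM, values that cannot be read as a level.

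Of the 46 genes, none passed the test of SR59230A against vehicle in edgeR (quasi-likelihood test, Benjamini-Hochberg adjusted p under 0.05, with a log2 fold change of 0.5 or more in either direction). The lowest adjusted p of a member was 0.996, and no gene of the 15207 tested passed either (0% called). With DESeq2, 17 genes of 15207 passed (0.112%), and a single member, Lama2, was among them (DESeq2 adjusted p = 0.0284). With offsets for transcript length, DESeq2 called no member (Lama2 adjusted p = 0.0826). At an unadjusted edgeR p under 0.05, 5 members were higher with SR59230A (Lama2, Loxl1, Mmp2, Timp3 and Pdgfra), where 2.22% of all genes were, and 1 was lower (Lama4), where 2.42% of all genes were. In 3 members the lowest SR59230A tumor exceeded the highest vehicle tumor, in CPM scaled by TMM (1.32% of all genes), and in 0 members the reverse held (1.29%). The log2 fold change was above 0 in 34 of 46 members (49.6% of all genes), with a median of 0.17 against -0.0017 over all genes tested. The 34 are not 34 separate observations, since genes made by the same cells of a tumor share their source. The members also spread more between tumors of a group than other genes did. Their median biological coefficient of variation was 0.268, against 0.213 over all genes. It was 0.195 over genes with a mean CPM no lower than that of the lowest member, without an upper limit. By the GENCODE annotation of GRCm38, the 6 genes named at the unadjusted threshold lie at chr10:26980036-27619758 (Lama2), chr9:58287738-58313186 (Loxl1), chr8:92827291-92853420 (Mmp2), chr10:86300372-86349506 (Timp3), chr5:75152292-75198215 (Pdgfra) and chr10:38965515-39110188 (Lama4). Their values are sums over all annotated transcripts of a gene. Without the 2 tumors with muscle transcripts the log2 fold changes were 0.73 for Mmp2, 1.03 for Timp3, 0.52 for Pdgfra and -0.27 for Lama4.

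The fibrillar collagens form the tensile fibers of connective tissue. Col1a1 and Col1a2 encode the chains of collagen I, Col3a1 that of collagen III, and Col5a1 and Col5a2 chains of collagen V, which sets the width of fibrils. All 5 had a positive log2 fold change, from 0.18 to 0.66, and none passed the test. Col3a1 had 253, 86.9, 118 and 259 CPM in vehicle tumors 0 to 3 and 348, 327, 221 and 237 CPM in SR59230A tumors 1 to 4. Vehicle tumors 1 and 2 were low, vehicle tumors 0 and 3 lay among the SR59230A tumors, and the groups overlapped. Its log2 fold change was 0.66 with a standard error of 0.35 (edgeR unadjusted p = 0.0863), and 0.43 without vehicle tumor 1. Col1a2 had 244, 155, 154 and 169 CPM with vehicle and 315, 201, 141 and 162 CPM with SR59230A. The highest value was in SR59230A tumor 1 and the lowest in SR59230A tumor 3, and the log2 fold change was 0.18 with a standard error of 0.26. The other 3 chains lie outside the rule for named genes and are given because their values were seen. Col1a1 had 241, 137, 132 and 162 CPM with vehicle and 324, 216, 147 and 182 CPM with SR59230A, a log2 fold change of 0.37 with a standard error of 0.27, or 0.12 without SR59230A tumor 1. Col5a1 and Col5a2 had log2 fold changes of 0.20 and 0.22. SR59230A tumor 1 was highest for all 5 chains. It was also the tumor with the highest muscle transcripts, and without both tumors with muscle transcripts the fold changes of Col1a1, Col1a2 and Col5a1 were -0.03, -0.26 and -0.26, while those of Col3a1 and Col5a2 were 0.36 and 0.08.

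Among the other collagens, Col6a1, Col6a2 and Col6a3 encode the chains of collagen VI, which forms beaded microfilaments around cells, and Col12a1 and Col14a1 encode collagens that sit on fibril surfaces. Col6a3 had 242, 219, 173 and 209 CPM with vehicle and 163, 202, 197 and 204 CPM with SR59230A. The groups overlapped within a narrow range, with a log2 fold change of -0.14 and a standard error of 0.13. Col6a1 had 118, 105, 80.8 and 99.6 CPM with vehicle and 83.7, 104, 94.3 and 84.9 CPM with SR59230A, and Col6a2 ranged from 62.3 to 79.6 CPM over all tumors. The collagen VI chains varied little between tumors, with ratios of highest to lowest tumor of 1.28 to 1.48. Col12a1 ranged from 47.1 to 125 CPM and Col14a1 from 1.36 to 10.1 CPM, the latter lowest in vehicle tumors 1 and 2.

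The basement membrane set held 10 genes, of which 5 had a positive and 5 a negative log2 fold change (median -0.01). Col4a1 and Col4a2, which are paired head to head on chromosome 8 and encode the main collagen IV chains, had differences within the spread between tumors. Col4a1 had 513, 489.9, 415 and 416 CPM with vehicle and 383, 551, 437 and 558 CPM with SR59230A, a log2 fold change of 0.07 with a standard error of 0.15. Col4a2 had 692, 566, 511 and 496 CPM with vehicle and 334, 590.0, 478 and 709.9 CPM with SR59230A. In both genes SR59230A tumor 1 was the lowest and SR59230A tumor 4 the highest, so that the spread within the treated group exceeded the difference between groups. Lama2 encodes the laminin α2 chain of muscle and peripheral nerve basement membranes. It had 4.46, 3.24, 2.60 and 4.10 CPM with vehicle and 8.24, 5.75, 7.74 and 7.55 CPM with SR59230A, without overlap. The means were 3.60 ± 0.840 and 7.32 ± 1.09 CPM (SD, n = 4 each). The log2 fold change was 1.03 with a standard error of 0.22 (edgeR unadjusted p = 0.00118, adjusted p = 0.996), on 86 to 302 reads per tumor. It was 1.09 without the 2 tumors with muscle transcripts, 1.26 in the tumors numbered 1 and 2 and 0.83 in the other 4.

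Lama4, which encodes the laminin α4 chain of vessel walls, pointed the other way. It had 164, 152, 102 and 115 CPM with vehicle and 76.5, 92.7, 106 and 116 CPM with SR59230A. The groups overlapped through vehicle tumors 2 and 3, and the log2 fold change was -0.45 with a standard error of 0.18 (edgeR unadjusted p = 0.0348, and 0.112 with transcript length offsets). It was -0.59 in the tumors numbered 1 and 2 and -0.34 in the other 4. The 16 endothelial markers tested beside it had a median log2 fold change of -0.06, with 12 lower and 4 higher. Lamb1, the laminin β1 chain, gave a value that cannot be read as a level. Its protein-coding transcripts were listed at 0 reads in vehicle tumors 0 and 1 and SR59230A tumors 2 and 4, and at 210, 215, 120 and 186 reads in vehicle tumors 2 and 3 and SR59230A tumors 1 and 3. Its partner chain Lamc1 (laminin γ1) had 318 to 497 CPM in the same tumors. The cause of these zeros was not tested and no fold change is given for Lamb1, although the rule for named genes would call for it. Col15a1 (15.3 to 60.4 CPM), Col18a1 (85.8 to 231 CPM), Nid1 (27.0 to 41.2 CPM) and Nid2 (3.93 to 9.13 CPM), which encode basement membrane collagens and nidogens, had no difference past the unadjusted threshold.

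All 9 glycoproteins and proteoglycans had a log2 fold change above 0 (0.02 to 1.08, median 0.21), and none reached the unadjusted threshold. Fn1 had 924, 727, 607 and 933 CPM with vehicle and 756, 982, 683 and 1080 CPM with SR59230A, fully interleaved, with a log2 fold change of 0.13 and a standard error of 0.20. Fbln1 had 244, 226, 263 and 166 CPM with vehicle and 240.2, 291, 169 and 213 CPM with SR59230A. Dcn and Lum encode decorin and lumican, small leucine-rich proteoglycans that coat collagen fibrils and mark fibroblasts. Dcn had 5.85, 2.32, 2.66 and 10.3 CPM with vehicle and 5.46, 10.4, 18.1 and 10.5 CPM with SR59230A. Its log2 fold change was 1.08 with a standard error of 0.51 (edgeR unadjusted p = 0.0619), and SR59230A tumor 1 lay below vehicle tumor 0. Lum had 1.14, 0.635, 0.151 and 2.60 CPM with vehicle and 2.02, 1.46, 2.24 and 1.51 CPM with SR59230A, on 5 to 74 reads per tumor. Its log2 fold change was 0.69 with a standard error of 0.65, and the vehicle tumors spanned the whole treated range. Leaving out vehicle tumor 2 gave 0.32 and leaving out vehicle tumor 3 gave 1.497, and the latter gave 1.63 for Dcn. The remaining members ranged from 181 to 247 CPM for Sparc, 167 to 258 for Fbln2 (fibulin-2), 85.9 to 262 for Postn (periostin, made by activated fibroblasts), 14.02 to 55.1 for Tnc (tenascin-C) and 27.3 to 74.0 for Bgn (biglycan).

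Genes of elastic fibers and of collagen crosslinking had the highest median of the 7 roles, 0.42, with all 5 above 0. Loxl1 encodes a lysyl oxidase that acts on elastin. It had 3.83, 3.83, 4.80 and 3.75 CPM with vehicle and 10.1, 8.75, 4.96 and 5.12 CPM with SR59230A. In CPM the groups did not overlap, but SR59230A tumors 3 and 4 lay just above vehicle tumor 2. In TPM they did overlap, with SR59230A tumors 3 and 4 (2.214 and 2.212) below vehicle tumors 1 and 2 (2.55 and 2.85). The means were 4.05 ± 0.499 and 7.24 ± 2.61 CPM (SD, n = 4 each), and the log2 fold change was 0.84 with a standard error of 0.27. Its unadjusted edgeR p was 0.0112, and without the tumors with muscle transcripts the log2 fold change was 0.31. In the tumors numbered 1 and 2 it was 1.14 and in the other 4 it was 0.40. Loxl2, a related enzyme, had 123, 135, 105 and 113 CPM with vehicle and 137, 117, 149 and 133 CPM with SR59230A, a log2 fold change of 0.17 with a standard error of 0.12. Fbn1, the microfibril protein fibrillin-1, had 143, 114, 88.0 and 124 CPM with vehicle and 125, 138, 101 and 156 CPM with SR59230A. Lox ranged from 13.0 to 57.1 CPM, lowest in vehicle tumors 1 and 2, and Eln, which encodes elastin, from 1.51 to 3.08 CPM.

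Of the proteases, inhibitors and processing factors, 4 of 6 had a log2 fold change above 0, and both a protease, Mmp2, and an inhibitor, Timp3, reached the unadjusted threshold. Mmp2, a gelatinase that cleaves denatured collagen and collagen IV, had 6.11, 4.10, 2.41 and 6.78 CPM with vehicle and 11.9, 7.15, 7.84 and 8.17 CPM with SR59230A, without overlap. The means were 4.85 ± 1.98 and 8.78 ± 2.16 CPM (SD, n = 4 each). Its log2 fold change was 0.86 with a standard error of 0.32 (edgeR unadjusted p = 0.0245). It was 1.54 in the tumors numbered 1 and 2 and 0.30 in the other 4. Timp3, a matrix-bound inhibitor of metalloproteinases, had 9.68, 6.44, 7.61 and 10.5 CPM with vehicle and 13.3, 9.09, 18.5 and 16.4 CPM with SR59230A. SR59230A tumor 2 lay below vehicle tumors 0 and 3 in CPM, while in TPM every treated tumor (3.89 to 5.55) lay above every vehicle tumor (2.60 to 3.32). The log2 fold change was 0.74 with a standard error of 0.24 (edgeR unadjusted p = 0.0132), with values of 0.67 in the tumors numbered 1 and 2 and 0.78 in the other 4. Pcolce had 123, 148, 138 and 102 CPM with vehicle and 104, 149.9, 111 and 132 CPM with SR59230A, a log2 fold change of -0.04 with a standard error of 0.15. Serpinf1, which encodes the secreted factor PEDF, had 24.5, 23.7, 20.5 and 24.8 CPM with vehicle and 20.03, 24.0, 24.2 and 19.5 CPM with SR59230A. Timp1 and Timp2 ranged from 6.09 to 10.6 and from 32.4 to 51.6 CPM.

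Of the 6 fibroblast and mural cell genes 4 had a log2 fold change above 0 and 2 below. Pdgfra, the receptor that marks fibroblasts, had 9.61, 6.27, 6.55 and 11.1 CPM with vehicle and 12.9, 13.8, 10.4 and 13.5 CPM with SR59230A. In CPM only vehicle tumor 3 and SR59230A tumor 3 were out of order. In TPM vehicle tumor 2 (3.82) lay above SR59230A tumors 3 and 4 (3.07 and 2.94). The log2 fold change was 0.60 with a standard error of 0.21 (edgeR unadjusted p = 0.0183). In the tumors numbered 1 and 2 it was 1.06, against 0.20 in the other 4. Thy1, a surface protein shared by fibroblasts and neurons, had 15.1, 14.4, 9.84 and 16.4 CPM with vehicle and 10.9, 8.34, 11.8 and 11.0 CPM with SR59230A. Acta2, the smooth muscle actin of pericytes and myofibroblasts, had 43.9, 43.4, 35.6 and 29.9 CPM with vehicle and 46.4, 43.0, 17.8 and 68.6 CPM with SR59230A. The treated tumors thus held both the lowest and the highest Acta2 value, and its log2 fold change was 0.20 with a standard error of 0.33. Pdgfrb, the receptor of pericytes, ranged only from 28.2 to 38.6 CPM, Fap (fibroblast activation protein) from 2.05 to 4.57 CPM and Pdpn (podoplanin) from 3.03 to 13.8 CPM.

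**Figure D2:**
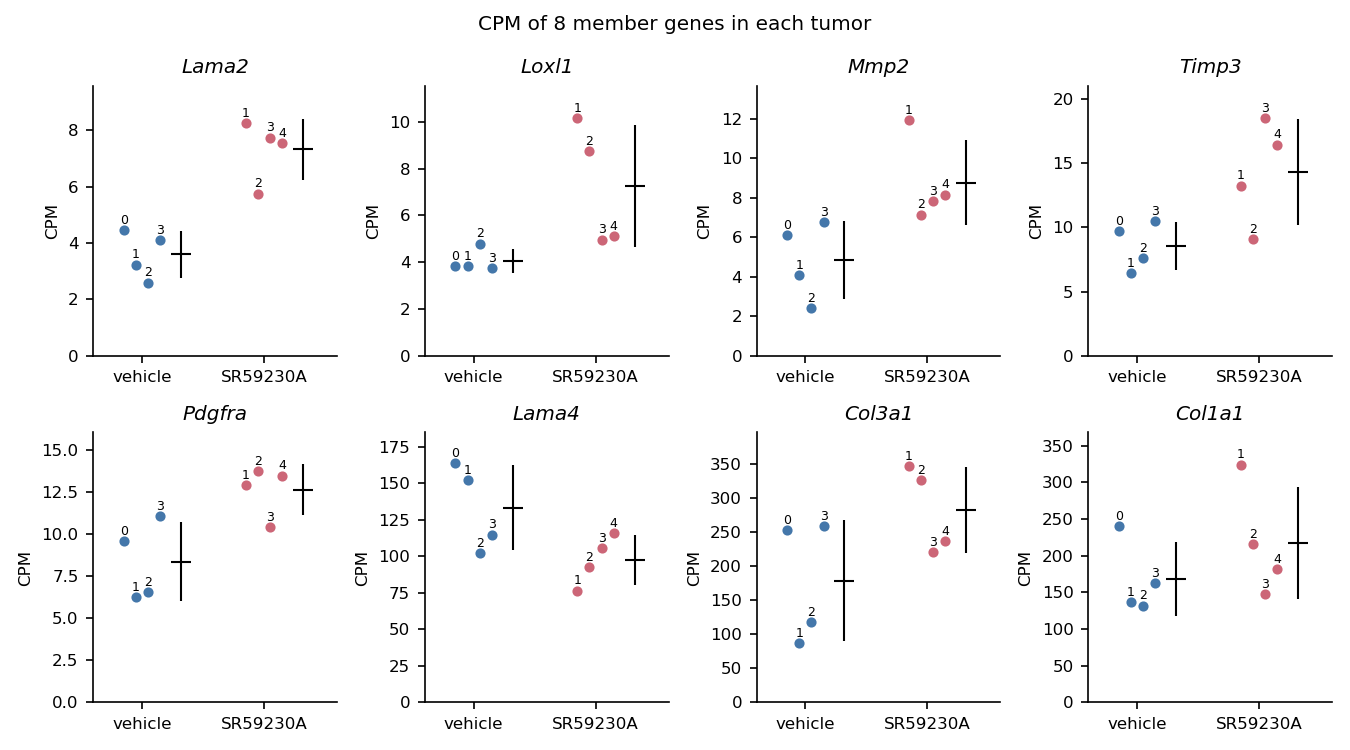
CPM of 8 genes in each tumor, with the tumor number above its point and the mean with its SD (n = 4) beside each group. Lama2, Loxl1 and Mmp2 have no overlap between groups, Timp3, Pdgfra, Lama4, Col3a1 and Col1a1 overlap, and vehicle tumors 1 and 2 are low for Col3a1.

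The members' values varied widely between tumors of the same group. In CPM, vehicle tumor 2 was the lowest of the 8 tumors for 17 of the 46 genes and vehicle tumor 1 for 8. These tumors were lowest for 12.01 and 7.90% of all genes, and neither was the highest in CPM for any member. SR59230A tumor 1 was the highest for 15 members (13.3% of all genes) and the lowest for 6. The other 2 vehicle tumors, numbers 0 and 3, were highest for 7 and 5 members and lowest for 1 and 4. The mean over members was 4.93 and 4.91 log2 CPM in vehicle tumors 1 and 2, 5.34 and 5.40 in vehicle tumors 0 and 3, and 5.27 to 5.54 in the SR59230A tumors. In TPM the order of the vehicle tumors differed. The summed member level was 2062 and 1798 TPM in vehicle tumors 1 and 2, against 1672 and 1273 TPM in vehicle tumors 0 and 3. It was 2125, 2420, 1442 and 1589 TPM in SR59230A tumors 1 to 4. Vehicle tumor 1 had the highest TPM of the 8 tumors for Lama4 (43.1) and Col6a3 (56.7), among others. Vehicle tumors 1 and 2 and SR59230A tumor 2 had the lowest retained-intron and mitochondrial shares, and the part of these measures in the members' values was not tested.

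**Figure D3:**
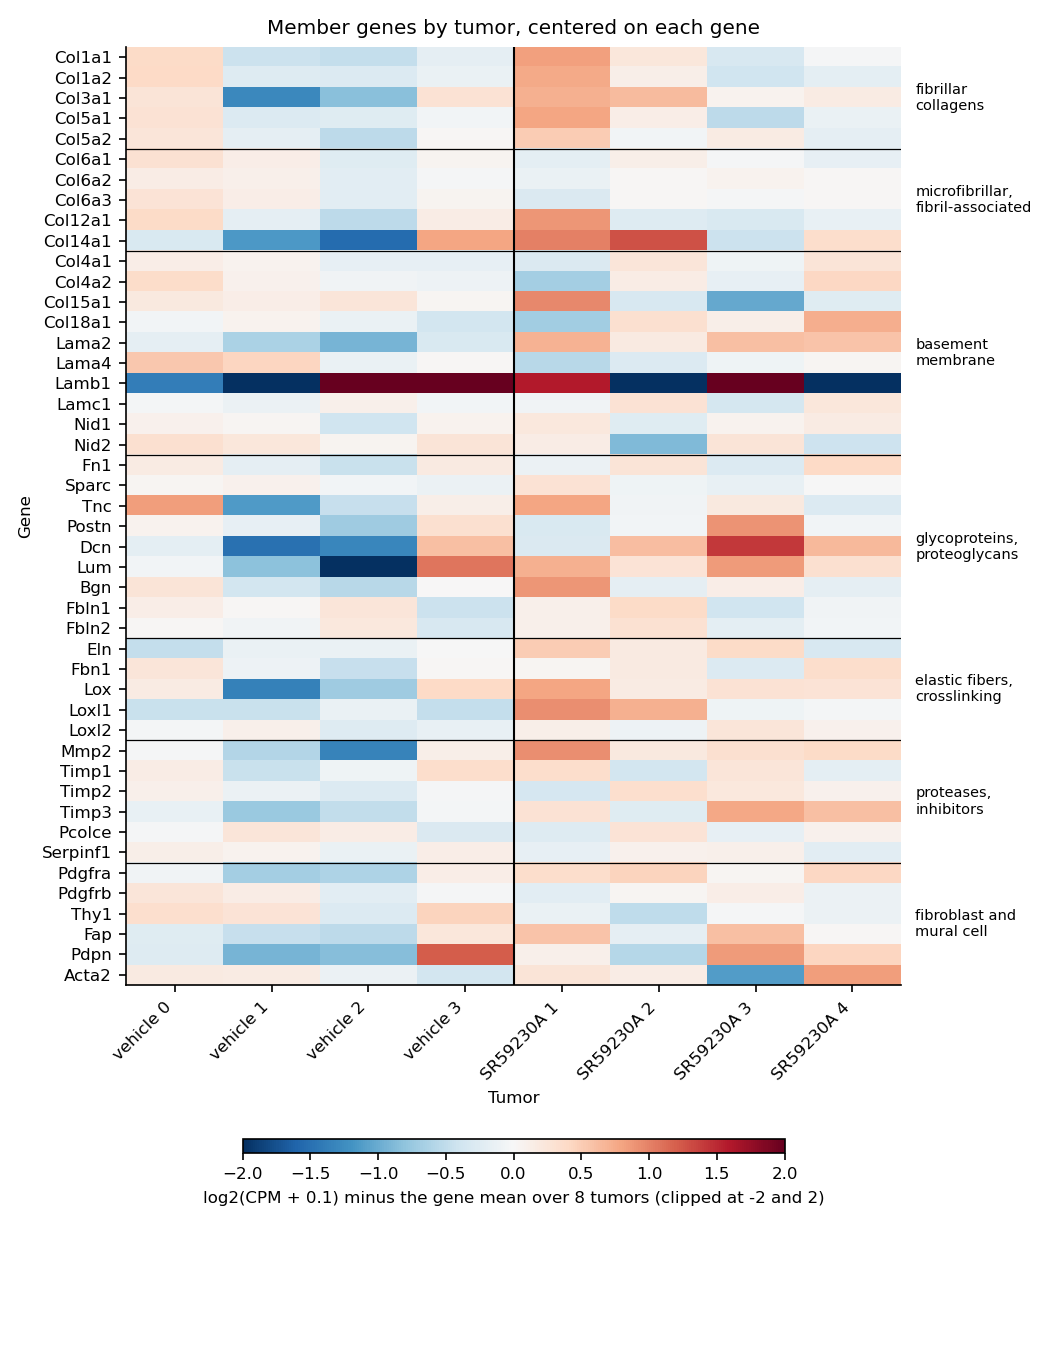
Log2 (CPM + 0.1) of each member minus its mean over the 8 tumors, from blue (lower) to red (higher), clipped at -2 and 2, with genes in rows by role and tumors in columns. Vehicle tumor 2 is the lowest for 17 genes and vehicle tumor 1 for 8, and SR59230A tumor 1 is the reddest among the fibrillar collagens.

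The comparison depended on which tumors were taken. The study describes its sequencing as made in duplicate and does not say in its text which tumors these were. The 4 tumors numbered 1 and 2 were compared on their own, and the other 4 likewise, a split made here with earlier results of these data known. In the tumors numbered 1 and 2, 35 of 46 members were above 0 (51.8% of all genes), with a median of 0.28, and 17 were higher at an unadjusted edgeR p under 0.05 (4.08% of all genes). In the other 4 tumors 18 members were above 0 (48.6% of all genes), with a median of -0.02, and 3 were higher at that threshold (2.3%), Col18a1, Lama2 and Timp3. The fibrillar collagens had opposite signs in the sets. All 5 had positive values in the tumors numbered 1 and 2 (0.61 to 1.72) and negative values in the other 4 (-0.46 to -0.14). The difference between sets was fitted as an interaction in edgeR, chosen after the values were seen. The tumors numbered 1 and 2 include the vehicle tumors most often lowest in CPM for the members and SR59230A tumor 1, most often highest in CPM. A larger treatment effect there follows from that grouping, so the interaction p-values describe the split and are no separate test of it. Of the members, 13 had an unadjusted interaction p under 0.05 (5.1% of all genes), all with a lower treatment effect in the other 4 tumors (3.04%), and none passed after adjustment (0% of all genes). They were the 5 fibrillar chains, Col12a1, Col14a1, Tnc, Lum, Bgn, Lox, Mmp2 and Pdgfra. Col3a1 had the lowest p, with an interaction of -1.88 on the log2 scale and a standard error of 0.24 (edgeR unadjusted p = 4.34e-05, adjusted p = 0.165). No basement membrane gene was among the 13, and the smallest unadjusted interaction p among those 10 was 0.120. The tumor set is mixed with the muscle transcripts and with the library measures given above, and these cannot be told apart.

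**Figure D4:**
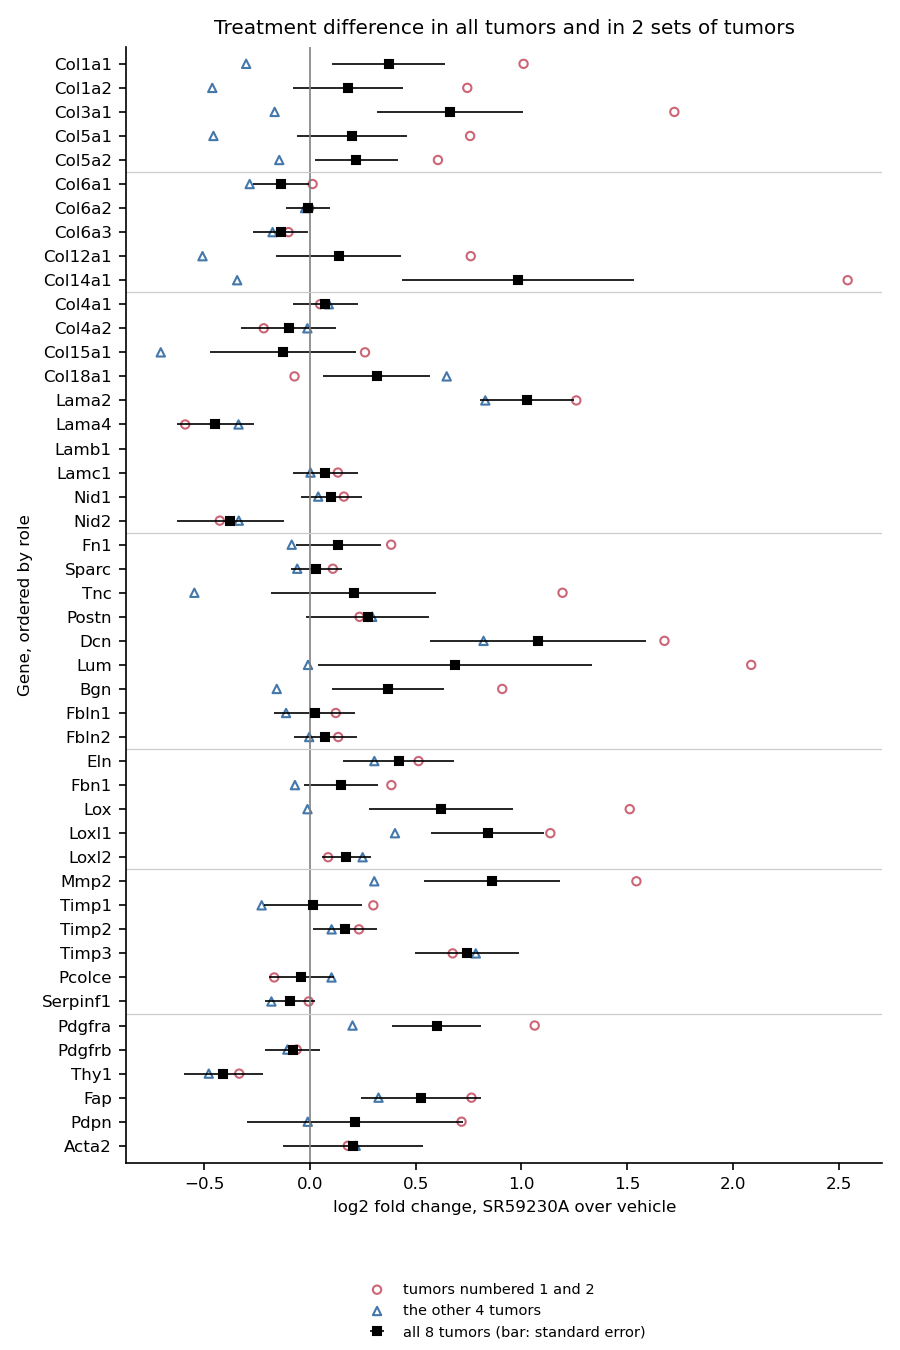
Log2 fold change of SR59230A over vehicle for 45 members (Lamb1 left out) over all 8 tumors, as squares with standard errors, in the tumors numbered 1 and 2, as circles, and in the other 4, as triangles. The circles lie right of the triangles for all 5 fibrillar collagens, and both symbols lie right of 0 for Lama2 and Timp3.

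Chains of the same trimer were compared within each library, where scaling plays no part. Collagen I takes more Col1a1 than Col1a2 chains. The ratio of Col1a1 to Col1a2 estimated counts was 0.985, 0.879, 0.859 and 0.958 in vehicle tumors 0 to 3 and 1.03, 1.07, 1.05 and 1.13 in SR59230A tumors 1 to 4, without overlap. In TPM the ratios were 1.00, 0.878, 0.834 and 0.964 with vehicle and 0.993, 1.05, 1.05 and 1.11 with SR59230A, so that vehicle tumor 0 then lay above SR59230A tumor 1. The ratio was picked from 5 such ratios after the values were seen. For collagen IV the TPM ratio of Col4a1 to Col4a2 was 1.42 in SR59230A tumor 1 and 0.918 to 1.14 in the other 7 tumors. Most members were carried by a single coding transcript, for example at least 99.8% of Col1a1 and 98.0 to 99.6% of Col3a1 counts. Fn1, which is spliced into many forms, had 38.1 to 58.4% on its leading transcript, and Lox had 20.8 to 78.6% on Lox-202. For Serpinf1 the leading transcript was annotated as a target of nonsense-mediated decay, at 31.1 to 46.4% of its counts.

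Other genes of the matrix pathway were described by lists, none of which held a gene that passed edgeR. Of 25 genes of collagen synthesis and secretion (prolyl and lysyl hydroxylases, chaperones and transport factors), 10 were above 0 and 15 below, with a median of -0.01 and none at an unadjusted p under 0.05. The TGF-beta pathway drives matrix production in fibroblasts. Its 20 listed genes, not all of which act in that direction, had a median of 0.09 (12 higher, 8 lower), and the 20 matrix proteases 0.08 (11 and 9). Other collagens and matrix proteins had a median of 0.17 (26 of 38 higher, 4 with an unadjusted p under 0.05). The 4 were Fbln5, Lamb2, Thbs2 and Fbn2, the last 2 named after their values were seen. Fbln5, the elastic fiber protein fibulin-5, had a log2 fold change of 0.90 with a standard error of 0.33, and Lamb2, a laminin β chain, 0.44 with 0.16. With length offsets Lamb2 was at 0.39 with 0.25, past the unadjusted threshold no longer (edgeR unadjusted p = 0.156). The 20 other fibroblast markers had a median of 0.27 (16 higher), with S100a4 and Medag at an unadjusted p under 0.05. Medag had 3.09, 1.86, 1.63 and 4.21 CPM with vehicle and 5.16, 4.73, 5.69 and 6.01 CPM with SR59230A, without overlap (log2 fold change 1.00, standard error 0.31, edgeR unadjusted p = 0.00984). Of 19 collagen and matrix receptors 13 were higher, with a median of 0.13. Itga8, the integrin α8 chain of mesenchymal cells, had 11.9, 12.5, 13.9 and 16.9 CPM with vehicle and 21.9, 21.7, 20.7 and 20.3 CPM with SR59230A. All 4 treated tumors lay within a narrow band above every vehicle tumor, with a log2 fold change of 0.62 and a standard error of 0.13 (edgeR unadjusted p = 0.00101, adjusted p = 0.996). Itga8 was the 1 receptor that passed DESeq2 (adjusted p = 0.0449). With transcript length offsets its log2 fold change was 0.37 in DESeq2 and the call was lost (adjusted p = 0.910), and in edgeR the unadjusted p was 0.0595.

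Genes of other cell types were measured beside the members. The 11 skeletal muscle genes tested all had log2 fold changes above 0 (median 3.88), and 2 of them, Ttn and Ckm, passed DESeq2. The summed level of the muscle list was 15.3 to 43.7 TPM in the vehicle tumors and 24.7 to 1379 TPM in the SR59230A tumors, with Acta1 at 433 TPM in SR59230A tumor 1. With the muscle mean as a covariate, 26 of 46 members were above 0 and their median was 0.09. Adipocyte genes had a median of 0.83 (9 of 11 higher), a direction that rested on SR59230A tumor 3, without which it was -0.15 (4 of 11 higher). With limma voom it was -0.02. The median was 0.26 for macrophage genes (13 of 18 higher), -0.09 for smooth muscle and pericyte genes (7 of 17 higher) and -0.06 for endothelial genes (4 of 16 higher). Markers of the neuroblastoma cells themselves had a median of -0.35 (15 of 17 lower), and their summed level was 1761 to 3574 TPM with vehicle and 1808 to 2786 TPM with SR59230A. Of these, Elavl4 and Th had an unadjusted p under 0.05, as did Mycn and Isl1, which are named after their values were seen. Of the Schwann cell markers 5 of 12 were tested (1 higher, 4 lower) and of the epidermal markers 1 of 12. Both tumors with high muscle transcripts were treated. The fits with the muscle mean and without those tumors therefore cannot tell muscle from treatment. The part of these cell types in the members' values was not tested.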

How the data were processed

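RNA of 8 tumors had been sequenced from rRNA-depleted stranded libraries. The authors quantified transcripts with Salmon, against GRCm38 by their methods and GRCm39 by the submitters' notes. The deposited files hold, for each transcript, estimated counts, TPM and an effective length (another quantity, in bases). The authors also deposited DESeq2 normalized counts per gene symbol, a scaled signal, used here only as an alternative. Its unnumbered vehicle column was treated as a vehicle tumor without a number.

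Here the estimated counts of a gene's transcripts were added up (99.1% of 116747 transcripts matched to GENCODE annotation of GRCm38) and rounded. A filter on low counts followed the default rule of edgeR 4.0.16 (R 4.3.3), libraries were scaled by TMM, and 15207 genes were compared by quasi-likelihood tests with p-values adjusted after Benjamini and Hochberg. CPM used the same factors. All 46 members passed the filter. Alternatives used DESeq2 1.42.0, limma 3.58.1 on log2(TPM + 1) and log2(TPM + 0.1), length offsets, other scalings and filters, and subsets of tumors. The count tests, without the interaction fit, were tried on simulated counts with known changes. The simulated spread between tumors was fixed and smaller than the members' median spread, so it does not show how the tests behave at that spread.

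The members, lists and comparisons were chosen with earlier results of these data known. Values per tumor are given for the 2 members of each role with the highest TPM, for members with an unadjusted p under 0.05 or without overlap, and for the 3 with the widest range. Fold changes are given for members named by p, overlap or range (Lamb1 excepted) and the leading member of each role. At most 2 genes of each other list are named, unless said otherwise. Chi-square tests of counts found no library deposited 2 times. Protein sequences were not used here. Some marker genes are not reported here.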

Additional observations from a re-analysis of the deposited data

Results flagged for a closer look

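Each member was examined in each group for a tumor far from the other 3 (Dixon's criterion), 92 groups in all, of which 4 stood out. Chance alone gives about 1 in 20 groups. Col12a1, a collagen on fibril surfaces, was at 125 CPM in SR59230A tumor 1 and at 54.5 to 61.0 CPM in the other SR59230A tumors. Postn was at 262 CPM in SR59230A tumor 3, against 114 to 136 in the others. Nid1 was at 27.0 CPM in vehicle tumor 2, against 36.8 to 38.0 in the other vehicle tumors. Loxl1 was at 4.80 CPM in vehicle tumor 2, against 3.75 to 3.83, and this tumor came closest to the treated group.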

How the results depend on the processing

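Over the 25 settings tried, most values kept their direction and their side of the threshold. DESeq2 called 17 genes, 1 of them a member (Lama2, log2 fold change 1.02, DESeq2 adjusted p = 0.0284), and with transcript length offsets 13 genes and no member. With length offsets Col6a3 was at 0.029 (edgeR) and 0.017 (DESeq2) and Col4a1 at -0.033 and -0.0438. With limma on log2(TPM + 1) and log2(TPM + 0.1) Col6a3 was at 0.077 and 0.079 and Pcolce at 0.023 and 0.023, and the muscle median was 1.32 on the first scale. On the deposited normalized counts the median of matrix receptors was 0.26. In the tumors numbered 1 and 2 the medians were -1.33 for adipocytes, 0.55 for other matrix proteins, 0.53 for other fibroblast markers and 6.50 for muscle. In the other 4 tumors edgeR called 5 genes, none a member, and 18 members were above 0. There Col1a1 was at -0.30, Col1a2 -0.46, Col3a1 -0.17, Col5a1 -0.46, Col5a2 -0.14, Fn1 -0.086, Lum -0.0089 and Pcolce 0.10, with medians of 3.17 for adipocytes, 0.0035 for receptors, -0.14 for collagen synthesis, -0.15 for other matrix proteins, 0.35 for muscle and -0.069 for the TGF-beta pathway. Without the 2 tumors with muscle transcripts Col1a1 was at -0.028, Col1a2 -0.26 and Col5a1 -0.26, with medians of 0.0028 for macrophages and 0.32 for muscle, and 6 members lay above and 1 below without overlap (7.1% and 6.76% of all genes). With the muscle mean as a covariate Col1a1 was at -0.10, Col1a2 -0.34, Col5a1 -0.33, Col5a2 -0.0528 and Pcolce 0.075, with medians of -0.0095 for macrophages, -0.030 for other fibroblast markers and -0.086 for muscle. Vehicle tumors 0 and 3 and SR59230A tumor 4 were set apart by an earlier look at these data for satellite-like reads, which were not measured here. Without them only vehicle tumors 1 and 2 remained as controls, the tumors most often lowest in CPM for the members. Against these controls alone, 17 members lay above without overlap (13.4% of all genes). In this fit Acta2 was at -0.13, and the medians were 0.22 for receptors, 0.52 for other matrix proteins, 0.53 for other fibroblast markers and 6.21 for muscle. The causes of these changes were not tested.

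Leaving out 1 tumor at a time, edgeR called 0 to 1 genes (1 without SR59230A tumor 4) and no member. The median of the members ran from 0.09 (without SR59230A tumor 1) to 0.24, and 30 to 36 members were above 0. Members without overlap numbered 3 to 6 above (6 without vehicle tumor 3, where 4.2% of all genes did so, and 5 without SR59230A tumor 1, where 2.54% did) and 0 to 2 below (2 without vehicle tumor 2, where 2.46% did). Col1a1 ran from 0.12 to 0.59, Col1a2 from -0.10 to 0.36 and Col5a1 from -0.10 to 0.36, all lowest without SR59230A tumor 1. Col3a1 ran from 0.43 to 0.89, Dcn from 0.73 to 1.63, Lum from 0.32 to 1.497 and Col5a2 from 0.067 to 0.35. Fn1 ran from 0.017 to 0.23, Col4a1 from -0.0043 to 0.17, Acta2 from -0.093 to 0.46 and Pcolce from -0.14 to 0.038. The adipocyte median was lowest when SR59230A tumor 3 was left out (-0.15) and highest when vehicle tumor 2 was (1.92). The muscle median ran from 1.49 (without SR59230A tumor 1) to 5.74. Lama2 ran from 0.90 to 1.14, Timp3 from 0.59 to 0.91, Loxl1 from 0.63 to 0.98, Mmp2 from 0.64 to 1.06, Pdgfra from 0.48 to 0.76 and Lama4 from -0.55 to -0.33.

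Whether the replicate numbers pair the tumors could not be settled. Deviations from the group means correlated at 0.010 for number 1, 0.63 for number 2 and 0.53 for number 3. SR59230A tumor 2 correlated as well with vehicle tumor 1 (0.63). Deviations within a group are tied to each other, so these correlations can neither show nor exclude pairing. With the replicate number as a block over tumors 1 to 3, edgeR called 2 genes and no member, and 1 gene without the block, with Acta2 at -0.11 and -0.020.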
